A study of Mus musculus with 6 samples.

Results

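Histone genes were taken as every gene of the deposited expression table whose name begins with Hist1h to Hist4h, H2af, H3f3 or H1f. They numbered 70 of the 9120 genes in the table. The Hist prefixes mark 61 replication-dependent genes, of which 3 encode linker histone H1, 17 encode H2A, 18 encode H2B, 11 encode H3 and 12 encode H4. The other prefixes mark 9 variant genes, namely H1f0, H1fx, H2afj, H2afv, H2afx, H2afy, H2afz, H3f3a and H3f3b. GENCODE M21 lists 82 protein-coding mouse genes with names of this form, and those outside the table were not analysed here.

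Expression was measured by RNA sequencing in the mouse podocyte line MPC5, which is conditionally immortalised, podocytes being the epithelial cells that cover the kidney's filtration barrier. Cells were grown at 33 °C with interferon gamma and differentiated for 7 days at 37 °C without it, so every library comes from 1 cell line that divides at the lower temperature and is moved to conditions meant to stop division. All 6 libraries came from total RNA of cells that the labels call stimulated with high glucose (30 mM), after a 6 h transfection step with small interfering RNA (siRNA). The libraries are called controls 1 to 3 and knockdowns 1 to 3 by their replicate numbers. The labels do not say that libraries of the same number were paired. The 3 control libraries had a scrambled siRNA and the 3 knockdown libraries were labelled as METTL3 knockdown, METTL3 being the enzyme that writes N6-methyladenosine into mRNA. Values are FPKM, fragments scaled by transcript length and library size, as deposited; the depth behind them is unknown. The sources used here do not give whether RNA with poly(A) tails was selected or ribosomal RNA was removed.

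Mettl3 measured 5.87, 6.34 and 5.75 FPKM in controls 1 to 3 and 3.68, 3.85 and 3.90 FPKM in knockdowns 1 to 3. Every knockdown library was below every control library, and transcript remained in all of them. FPKM summed to between 173721 and 176526 per library. Replicate 3 of each group has a title code of another form than replicates 1 and 2, whose codes begin with HG, and the replicate 3 libraries stood apart from the other 4. Of 17 podocyte markers 7 were in the table. They summed to 143 to 157 FPKM in control and 146 to 153 FPKM in knockdown libraries. Most of this sum was Actn4, with a control mean of 109 FPKM. Wt1 and Synpo were lowest, with control means of 0.45 and 0.79 FPKM. Nphs1 and Podxl, which podocytes are known for, were not among the 7. Of 13 fibroblast or mesangial markers 9 were in the table, with summed levels of 2776 to 5660 FPKM in control and 3394 to 5880 FPKM in knockdown libraries, highest in replicate 3 of both groups. The table held 3 of 9 endothelial, 1 of 10 tubule and 1 of 10 immune markers.

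Histones package DNA into nucleosomes, each built from pairs of H2A, H2B, H3 and H4, with H1 bound to the linker DNA. Replication-dependent histone genes lie in clusters, are transcribed mainly in S phase and give mRNAs that mostly end in a conserved stem-loop in place of a poly(A) tail. The stem-loop is bound by SLBP, and the mRNA is cut downstream of it by a complex that contains CPSF3 and is guided by the U7 small nuclear RNA. Variant histone genes lie outside these clusters as a rule, have polyadenylated mRNAs and supply histones throughout the cell cycle and in cells that no longer divide.

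The stem-loop was looked for in GENCODE M21 transcripts with the pattern GGNNCTTTTNAGNNCC, where N is any base, on the transcript strand and with the additional condition that the 6 bases at each end pair. It was found in 50 of 55450 genes (0.09%), and 45 of these 50 had names of the histone rule. It was in 41 of the 61 replication-dependent genes, and 10 of the 20 without it have gene models that stop at the coding sequence. It began between 21 and 58 bases after the stop codon, with a median of 31. Among the variants it was found in 1 of 9, H2afx. The forms are shown because they separate the H4 genes from the other families and H2afx from the other variants. Letters are those of the mRNA written with T, from 5′ to 3′; capitals mark the 2 arms of the stem and lower case the loop, and the position of each shown copy is on GRCm38.
Hist1h2ad, chr13:23574895-23574910, plus strand: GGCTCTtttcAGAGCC
Hist1h3e, chr13:23561903-23561918, minus strand: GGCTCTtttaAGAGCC
Hist2h2ac, chr3:96220418-96220433, minus strand: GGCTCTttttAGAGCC
Hist1h4m, chr13:21812129-21812144, plus strand: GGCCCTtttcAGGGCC
Hist1h4i, chr13:22040966-22040981, minus strand: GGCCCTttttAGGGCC
Hist1h4b, chr13:23757366-23757381, plus strand: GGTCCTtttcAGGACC
H2afx, chr9:44335240-44335255, plus strand: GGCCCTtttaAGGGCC
The form shown for Hist1h2ad was the most frequent, with 25 genes from the H1, H2A, H2B and H3 families. The form of Hist1h3e was found in 5 H2B and H3 genes and that of Hist2h2ac in 1 gene. All 10 H4 genes with a stem-loop had 1 of the 3 other forms, shown for Hist1h4m (6 genes), Hist1h4i (2 genes) and Hist1h4b (2 genes), whose arms differ from those of the other families. H2afx has the arms of the Hist1h4m form with another loop. An AATAAA or ATTAAA signal stood in the last 40 bases of an annotated transcript in 14 replication-dependent genes and in 8 of the 9 variants, and 10 replication-dependent genes and H2afx had both features.

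Promoter windows, from 250 bases before to 50 bases after the start site, were taken from RefSeq (build GRCm38.p6) for 56 replication-dependent and 8 variant genes. Each was searched on both strands for the CCAAT box, the TATA box sequence TATAAA and the octamer ATTTGCAT. Matches were counted at any place in the window, so a TATAAA match need not be a TATA box in use. CCAAT was found in 37.9% of 27025 RefSeq promoters, and in all 3 H1, 17 H2A, 16 H2B and 9 H3 replication-dependent windows, but in 3 of 11 H4 windows. TATAAA was found in 14.2% of all promoters and in 57.1% of replication-dependent windows, with 8 of 11 among H4. The octamer was found in 1.8% of all promoters, in 6 of 17 H2A and 6 of 16 H2B replication-dependent windows, in no replication-dependent H3 or H4 window, and in 1 of the 8 variant windows, that of H3f3b. An H2A and an H2B gene on opposite strands had overlapping windows in 9 cases, so the counts for H2A and H2B are not independent. The windows below belong to the most abundant H2A and H3 genes, the H2B gene with the smallest p in the knockdown comparison, the most abundant H4 gene and a variant; capitals mark the CCAAT box, the TATA box and the octamer on either strand, and each is written 5′ to 3′ on the strand of its gene.
Hist2h2ac, chr3:96220831-96221130, minus strand: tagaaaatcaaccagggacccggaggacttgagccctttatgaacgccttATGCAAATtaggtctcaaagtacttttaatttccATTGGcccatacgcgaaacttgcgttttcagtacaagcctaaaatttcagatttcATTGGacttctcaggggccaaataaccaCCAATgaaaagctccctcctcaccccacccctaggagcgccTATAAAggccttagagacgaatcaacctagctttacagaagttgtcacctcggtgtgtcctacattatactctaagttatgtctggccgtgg
Hist2h3b, chr3:96268404-96268703, plus strand: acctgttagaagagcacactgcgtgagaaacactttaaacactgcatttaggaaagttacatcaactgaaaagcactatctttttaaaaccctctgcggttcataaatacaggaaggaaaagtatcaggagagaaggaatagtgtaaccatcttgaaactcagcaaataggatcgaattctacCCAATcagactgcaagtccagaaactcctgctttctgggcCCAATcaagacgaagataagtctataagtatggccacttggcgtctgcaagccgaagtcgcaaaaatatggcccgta
Hist1h2bj, chr13:22042948-22043247, plus strand: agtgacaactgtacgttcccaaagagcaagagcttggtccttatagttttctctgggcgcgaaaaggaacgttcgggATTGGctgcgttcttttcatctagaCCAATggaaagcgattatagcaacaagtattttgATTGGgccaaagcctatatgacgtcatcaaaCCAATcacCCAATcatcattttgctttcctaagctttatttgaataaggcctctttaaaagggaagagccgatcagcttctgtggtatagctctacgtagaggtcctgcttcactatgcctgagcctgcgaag
Hist1h4m, chr13:21811496-21811795, plus strand: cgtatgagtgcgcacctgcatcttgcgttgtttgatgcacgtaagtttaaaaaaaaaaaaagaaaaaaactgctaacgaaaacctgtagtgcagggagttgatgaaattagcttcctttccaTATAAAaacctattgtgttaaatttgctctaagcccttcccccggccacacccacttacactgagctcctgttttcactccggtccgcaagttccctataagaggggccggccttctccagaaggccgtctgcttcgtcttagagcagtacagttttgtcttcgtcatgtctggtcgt
H2afz, chr3:137864237-137864536, plus strand: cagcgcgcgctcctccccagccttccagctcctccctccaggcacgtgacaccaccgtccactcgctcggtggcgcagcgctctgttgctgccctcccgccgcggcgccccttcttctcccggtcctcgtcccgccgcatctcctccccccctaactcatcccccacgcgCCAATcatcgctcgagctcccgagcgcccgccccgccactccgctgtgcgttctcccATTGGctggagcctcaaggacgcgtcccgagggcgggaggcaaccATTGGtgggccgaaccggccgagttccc
The window of Hist2h2ac held 3 CCAAT, 1 TATAAA and 1 octamer, that of Hist2h3b held 2 CCAAT and neither of the others, and that of Hist1h2bj held 5 CCAAT and neither of the others. Hist1h4m had 1 TATAAA and no CCAAT, and H2afz had 3 CCAAT. The window of Hist1h2bj shares 252 bases with that of the divergent H2A gene Hist1h2ag.

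Replication-dependent transcripts were abundant in these libraries. They summed to 2738, 3308 and 2150 FPKM in controls 1 to 3 and to 2339, 2335 and 1551 FPKM in knockdowns 1 to 3, that is 0.880% to 1.87% of each library's FPKM. The single most abundant gene was Hist2h3b, an H3 gene of the chromosome 3 cluster, which made up 45.6% of the summed mean H3 level. Hist2h2ac made up 34.1% of H2A, Hist1h2bc 25.6% of H2B and Hist1h4m 24.3% of H4. The H1 genes were near the bottom of the table, at 2.1 to 4.02 FPKM for all 3 together. FPKM also depends on the length of the gene model, which is 7425 bases for Hist1h1d and 488 for Hist2h3b. No member was listed at 0 in any library.

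Levels of single replication-dependent genes are uncertain, because the genes are near-identical copies and the sources used here do not give how reads were assigned between them. As a measure of this, a median of 52.3% of all 50-base stretches of a replication-dependent gene's transcripts also occurs in another gene, against 2.2% for the variants. The median was 78.9% for H2A, 60.4% for H3, 46.9% for H2B and 39.95% for H4. Sums over a family depend less on how reads were split within it, and both sums and single genes are therefore given.

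**Figure D1:**
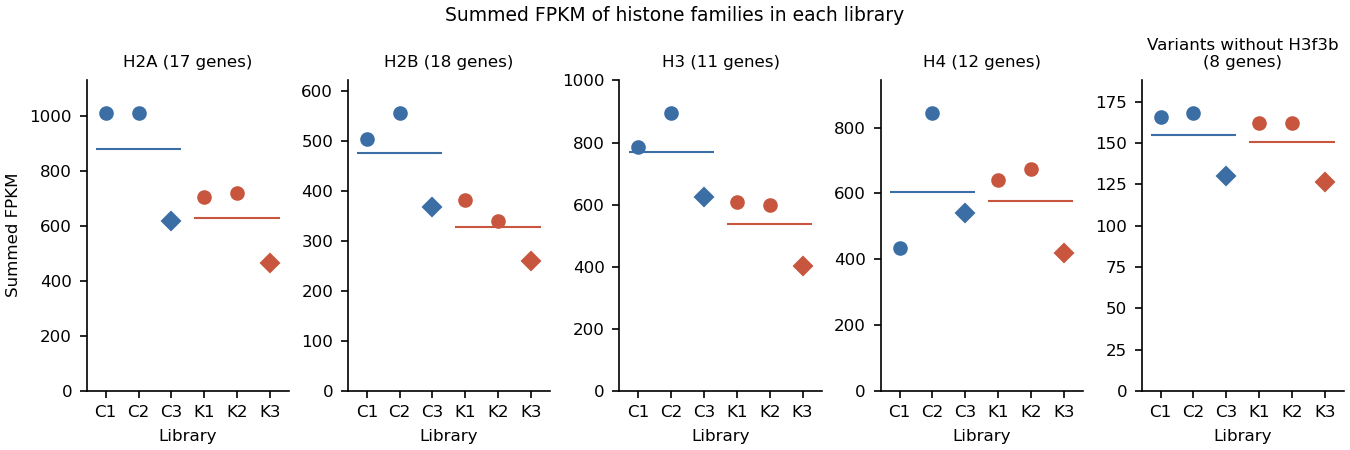
Summed FPKM of the replication-dependent H2A, H2B, H3 and H4 genes and of the variants without H3f3b in control (C1 to C3, blue) and knockdown (K1 to K3, red) libraries; diamonds mark replicate 3, lines the group means, and each panel has its own axis from 0. Each knockdown library was below the control library of the same number for H2A, H2B and H3. Control replicate 3 was below knockdown replicates 1 and 2 for H2A and below knockdown replicate 1 for H2B. For H4 control replicate 1, at 433 FPKM, was below knockdown replicates 1 and 2.

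The comparison of knockdown with control libraries asks how transcript levels in high glucose depend on Mettl3. Replication-dependent H2A, H2B and H3 transcripts were lower in knockdown, with summed levels 28.3%, 31.2% and 30.2% below the control mean, whereas the H4 sum was 4.54% lower and the variants without H3f3b 2.77% lower. No single histone gene passed the test over all genes. Of the 70 genes 65 passed the filter of at least 1 FPKM in 3 or more of the 6 libraries, 56 replication-dependent and all 9 variants, and none passed through a single group. Among the 56, 51 had a log2 fold change below 0, where 45.3% of all 8047 genes tested did, and the median was -0.46 against 0.02 over all genes. By limma on log2(FPKM + 1) with Benjamini-Hochberg adjustment over all genes, 0 histone genes and 0 of all genes (0%) had an adjusted p under 0.05. Mettl3, the target of the knockdown, did not pass either, with a log2 fold change of -0.54 and an adjusted p of 0.799. At an unadjusted p under 0.05, 19 of the 56 were lower and none higher, against 2.1% of all genes lower. All 3 knockdown libraries were below all 3 control libraries in 12 of the 56, where 4.01% of all genes were, and none of the 65 were higher without overlap (6.06% of all genes).

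Part of the spread within each group lies between replicate 3 and the others. With the form of the title code as a term in the limma fit, 38 of the 56 replication-dependent genes had an unadjusted p under 0.05, all lower, against 5.69% of all genes lower. The smallest adjusted p among them was then 0.0726, and no gene of the table passed. A fit blocked by replicate number, a matching that the labels do not give, gave 39 such genes, against 5.19% of all genes lower. Its smallest adjusted p among them was 0.210. The median was -0.42 within the 4 HG-coded libraries and -0.46 between the 2 replicate 3 libraries, and 47 replication-dependent genes were lower in knockdown in both comparisons, as were 25% of all genes. A term for knockdown by code form gave no histone gene an adjusted p under 0.05 (smallest 0.917, limma). Leaving out 1 library, without a term for the code, gave medians from -0.28 (without knockdown replicate 3, 9 genes at an unadjusted p under 0.05) to -0.58 (without control replicate 3, 39 genes). The count was 6 without control replicate 1 and 4 without control replicate 2. Of all genes 2.67% were lower at an unadjusted p under 0.05 without knockdown replicate 3, 3.93% without control replicate 3, 1.49% without control replicate 1 and 1.04% without control replicate 2.

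The 3 replication-dependent H1 genes, which encode linker histones, were low. Hist1h1d measured 1.92, 1.97 and 1.88 FPKM in control and 2.07, 1.74 and 1.42 FPKM in knockdowns 1 to 3, which overlap. Hist1h1e and Hist1h1c did not pass the filter. Hist1h1e was at 0.826, 1.33 and 1.01 FPKM in control and at 0.476, 0.414 and 0.398 FPKM in knockdown libraries, the latter all lower. Hist1h1c ranged from 0.284 to 0.934 FPKM over the 6 libraries with the groups overlapping.

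All 16 tested H2A genes had a fold change below 0, with log2 values from -0.60 to -0.25 and a median of -0.50. Hist2h2ac measured 327, 363 and 194 FPKM in control and 242, 241 and 172 FPKM in knockdowns 1 to 3. Each knockdown library was below the control of the same number, but control replicate 3 was below knockdown replicates 1 and 2. The log2 fold change was -0.40 with a standard error (SE) of 0.25, and the adjusted p was 0.998 (limma). Hist1h2ad measured 139, 130 and 88.4 FPKM in control and 90.1, 104 and 57.3 FPKM in knockdown, and Hist1h2ah 138, 117 and 87.5 FPKM against 83.4, 93.9 and 58.7 FPKM. In both, each knockdown library was below the control of the same number, and control replicate 3 was below knockdown replicate 2. The groups overlapped in 15 of the 16 genes, and Hist3h2a was the one that did not overlap. Of all genes 4.01% were lower without overlap. Hist2h2aa1 did not pass the filter; it was at 0.0442 to 0.0921 FPKM in control and 0.459 to 0.565 FPKM in knockdown, with 89.4% of its 50-base stretches shared, while Hist2h2aa2 measured 46.3, 47.4 and 27.8 FPKM in control and 35.5, 35.9 and 23.7 FPKM in knockdown.

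In the fit without the code form, 5 of the 6 replication-dependent genes with the smallest p-values were H2B genes. This family has 16 of the 56 tested genes. With the code form in the fit, the smallest p-values were those of Hist1h2bj, Hist1h2bl, Hist1h2ap, Hist1h2ae, Hist2h3c2 and Hist1h2bg. These are H2A, H2B and H3 genes. Hist1h2bj measured 24.3, 22.3 and 18.1 FPKM in control and 15.1, 14.3 and 10.3 FPKM in knockdowns 1 to 3. Every knockdown library was below every control library, with the lowest value in replicate 3 of each group. Its log2 fold change was -0.67 (SE 0.17; adjusted p = 0.998, limma). Of the other tested H2B genes 13 of 15 were below 0, Hist1h2bn and Hist1h2bq being at 0.00 and 0.06, and the family median was -0.46. The groups did not overlap in 7 of 16 H2B genes, all lower in knockdown, as did 4.01% of all genes. Hist1h2bc, the most abundant, measured 127, 148 and 94.1 FPKM in control and 98.4, 84.5 and 64.9 FPKM in knockdown, with knockdown replicate 1 slightly above control replicate 3. Hist1h2bg measured 95.1, 109 and 75.0 FPKM against 72.3, 63.6 and 45.3 FPKM, without overlap. Hist1h2bm measured 60.6, 69.7 and 41.7 FPKM against 47.2, 44.6 and 36.2 FPKM, where control replicate 3 was below knockdown replicates 1 and 2.

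Further H2B genes with small p-values were low to moderate in level. Hist1h2ba, which encodes the testis H2B, measured 11.8, 10.6 and 10.1 FPKM in control and 8.42, 7.76 and 5.97 FPKM in knockdown. Hist1h2bp measured 12.2, 11.9 and 9.07 FPKM against 8.44, 7.60 and 7.18 FPKM, and Hist1h2br 3.55, 3.49 and 2.25 FPKM against 1.83, 1.97 and 1.74 FPKM. The groups did not overlap in any of these 3, with log2 fold changes of -0.51, -0.45 and -0.51. Of Hist1h2br, 88.7% of the 50-base stretches are shared with other genes. Hist2h2be and Hist3h2ba did not pass the filter, and their groups overlapped.

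All 11 H3 genes were below 0, with log2 fold changes from -0.58 to -0.39 and a median of -0.51. Hist2h3b measured 350, 414 and 285 FPKM in control and 278, 271 and 186 FPKM in knockdowns 1 to 3. The lowest control library, replicate 3, was just above the highest knockdown library, so the groups did not overlap. Its log2 fold change was -0.51 (SE 0.19; adjusted p = 0.998, limma). Hist1h3b measured 116, 118 and 94.1 FPKM against 84.6, 85.0 and 53.0 FPKM, also without overlap. Hist2h3c2 measured 103, 119 and 74.3 FPKM against 74.7, 74.4 and 53.5 FPKM, and Hist1h3e 16.2, 17.97 and 13.7 FPKM against 12.2, 10.5 and 9.16 FPKM. Of these, Hist2h3c2 overlapped by less than 1 FPKM and Hist1h3e did not overlap. In all, 4 of the 11 genes were lower without overlap, where 4.01% of all genes were.

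**Figure D2:**
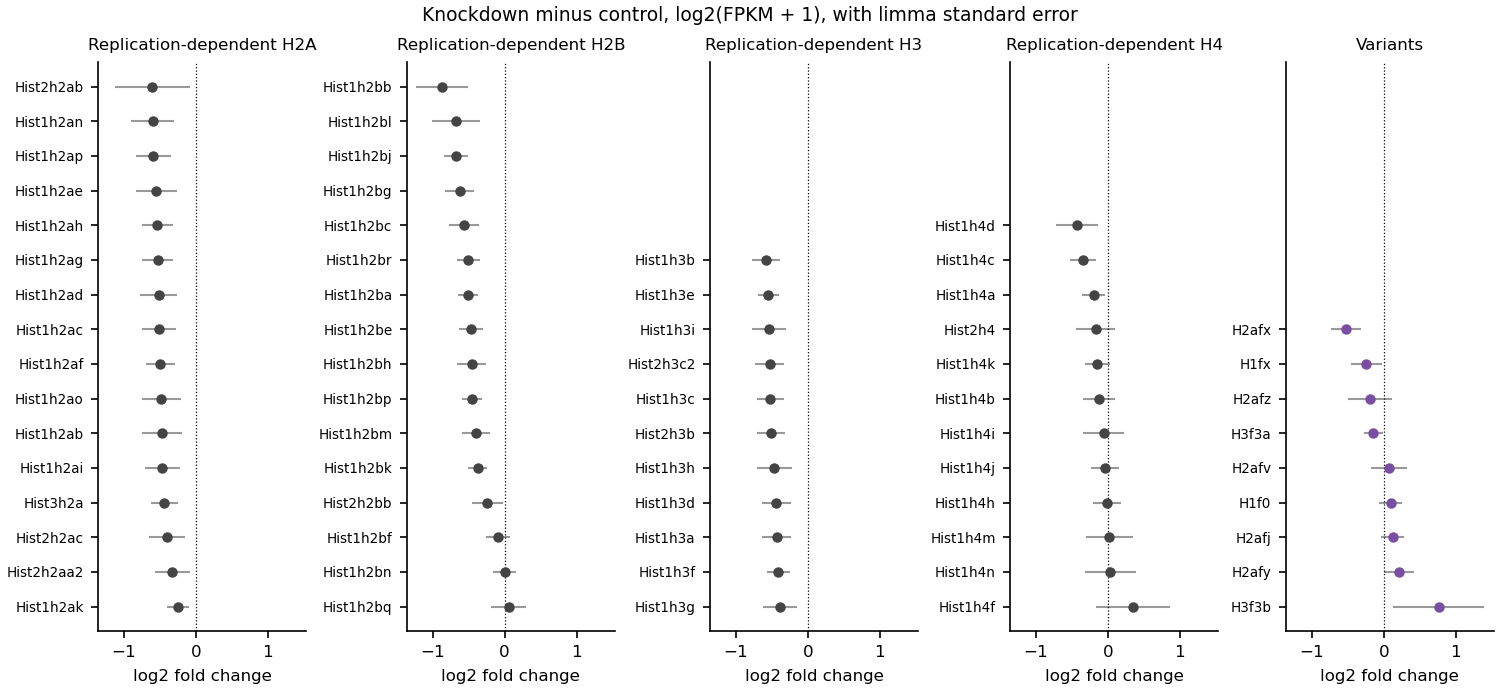
Log2 fold change (knockdown minus control, log2(FPKM + 1), x axis) with the limma standard error for each tested gene, by replication-dependent family and for the variants; Hist1h1d, the 1 tested H1 gene, at -0.10, is not drawn. The H2A and H3 genes all lie below 0, H4 genes lie between -0.43 and 0.35, and the variants lie between -0.53 and 0.76.

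H4, which forms the core of the nucleosome with H3, did not share this pattern in all libraries. Of the 12 genes 9 were below 0, the median was -0.09, and none had an unadjusted p under 0.05 or groups without overlap. Hist1h4m measured 90.8, 210 and 135 FPKM in control and 159, 172 and 97.8 FPKM in knockdowns 1 to 3. Hist1h4n measured 71.0, 176 and 116 FPKM against 129, 147 and 82.1 FPKM, and Hist1h4i 89.3, 176 and 106 FPKM against 125, 139 and 84.3 FPKM. In all 3 genes control replicate 1 was the lowest or the next to lowest library and control replicate 2 the highest of the 6, and the groups overlapped. The largest gap was in Hist1h4f, at 9.39, 43.3 and 26.5 FPKM in control and 32.9, 36.6 and 19.5 FPKM in knockdown, with control replicate 1 lowest of all.

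The H4 values turned on single control libraries. Without control replicate 1, and with the code form in the limma fit to 5 libraries, the H4 median was -0.37, with 12 of 12 genes below 0 and 10 at an unadjusted p under 0.05. Of all genes 49.3% were below 0 in that fit and 5.13% were lower at an unadjusted p under 0.05. Without control replicate 2 in the same fit, 4 of 12 were below 0 and the median was 0.14, with 43.4% of all genes below 0. Between the 2 replicate 3 libraries 11 of 12 were lower in knockdown, with a median of -0.35, and within the HG-coded libraries 7 of 12 were, with a median of -0.06. Of all genes 47.3% and 46% were lower in these comparisons. For H2A, H2B and H3 the 5-library fits with the code form gave medians from -0.56 to -0.43. The ratio of summed H2A to summed H4 FPKM was 2.33, 1.19 and 1.14 in controls 1 to 3 and 1.10, 1.06 and 1.11 in knockdowns 1 to 3. Control replicate 1 stood apart in this ratio and the other 5 libraries lay close together. Summed H2A over summed H3 was 1.28, 1.13 and 0.985 in control and 1.16, 1.2 and 1.15 in knockdown, with no such gap.

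**Figure D3:**
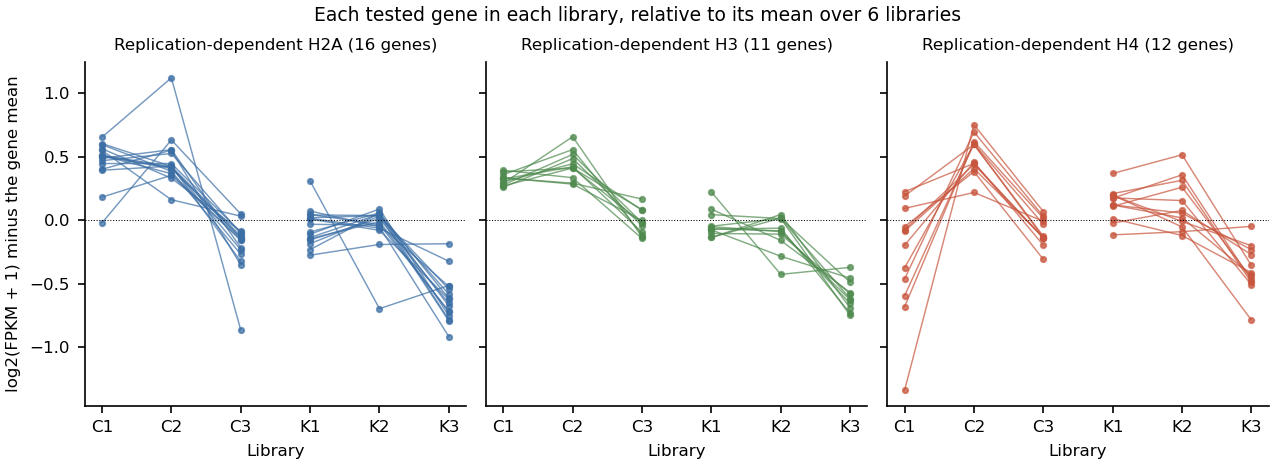
Log2(FPKM + 1) of each tested replication-dependent H2A, H3 and H4 gene in each library, relative to its mean over 6 libraries; lines join the libraries of 1 group for the same gene, and the order of replicates has no meaning. H2A and H3 genes were high in control replicates 1 and 2 together, whereas H4 genes had a median of -0.14 in control replicate 1 and 0.53 in control replicate 2.

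The variants had no common direction in the knockdown comparison. Of the 9 genes 4 were below 0 and 5 above, the median log2 fold change was 0.07, and the groups overlapped in all 9. The difference between the class medians, replication-dependent minus variant, was -0.53 on the log2 scale; it is a description, since both classes were chosen by name and no test was made over members. Summed replication-dependent FPKM over that of the variants without H3f3b was 16.5, 19.7 and 16.5 in control and 14.4, 14.4 and 12.3 in knockdowns 1 to 3, so every knockdown library was below every control library. H3f3b was left out of this ratio because of a single control library described below.

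H2afx encodes H2A.X, which is phosphorylated at DNA breaks, and its human mRNA is known in a short form that ends at the stem-loop and a longer polyadenylated form. It was the variant with the largest decrease. It measured 24.4, 21.2 and 15.1 FPKM in control and 16.9, 13.1 and 11.1 FPKM in knockdowns 1 to 3. Each knockdown library was below the control of the same number, with knockdown replicate 1 above control replicate 3. The log2 fold change was -0.53 (SE 0.21; adjusted p = 0.998, limma), and it was the 1 variant with an unadjusted p under 0.05. With the code form in the fit, the adjusted p was 0.185 and H2afz also had an unadjusted p under 0.05. The change of H2afx lay near the H2A median of -0.50; that the stem-loop has a part in this was not tested.

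The other H2A variants had changes between -0.19 and 0.21. H2afz, which encodes H2A.Z, found at promoters, measured 26.7, 24.4 and 13.8 FPKM in control and 22.2, 21.5 and 12.3 FPKM in knockdown. H2afv, the gene of the second H2A.Z protein, measured 10.6, 9.54 and 6.41 FPKM against 11.1, 10.9 and 6.33 FPKM. In both, replicate 3 of each group was lowest. H2afy, which encodes macroH2A1, a variant with a large globular domain, measured 8.38, 9.35 and 6.83 FPKM against 10.6, 11.9 and 6.79 FPKM. H2afj, which encodes H2A.J, went the other way among replicates, at 12.8, 15.8 and 19.7 FPKM against 16.3, 16.5 and 19.5 FPKM, with replicate 3 highest in both groups.

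H3f3a and H3f3b both encode H3.3, the H3 that is deposited outside replication. H3f3a measured 19.3, 13.9 and 16.3 FPKM in control and 15.3, 13.5 and 15.4 FPKM in knockdowns 1 to 3, a log2 fold change of -0.14 with overlapping groups. H3f3b measured 27.1, 168 and 148 FPKM in control and 159, 149 and 142 FPKM in knockdown. Control replicate 1 was far below the other 5 libraries, which lay between 142 and 168 FPKM. Its log2 fold change was 0.76 (SE 0.64; adjusted p = 0.998, limma) with all libraries and -0.07 without control replicate 1. Among linker variants, H1f0, the H1 of differentiated cells, was the second most abundant variant at 59.4, 69.7 and 49.99 FPKM against 67.0, 72.0 and 52.7 FPKM. H1fx was at 4.04, 4.42 and 2.13 FPKM against 2.84, 2.85 and 2.46 FPKM. Both overlapped between groups.

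**Figure D4:**
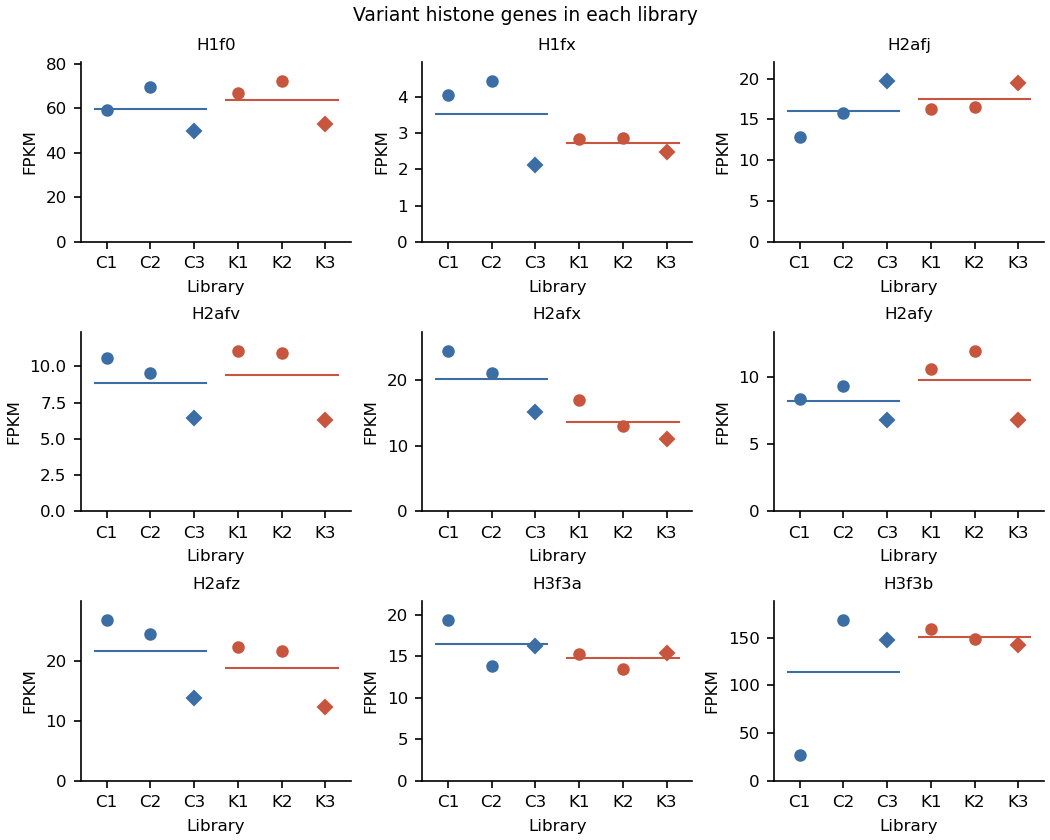
FPKM of the 9 variant genes in control (C1 to C3, blue) and knockdown (K1 to K3, red) libraries; diamonds mark replicate 3, lines the group means, and each panel has its own axis from 0. H3f3b was at 27.1 FPKM in control replicate 1, where the other 5 libraries had 142 to 168 FPKM, and H2afx was lower in each knockdown library than in the control of the same number.

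Medians of the knockdown comparison within the replication-dependent class, given as descriptions, were close for most features other than the family. Genes with the stem-loop pattern had a median of -0.44 (34 of 37 below 0) and those without it -0.49 (17 of 19). Of the 20 replication-dependent genes without the pattern, 10 have models that stop at the coding sequence, where it could not be found. This split therefore does not separate genes that have a stem-loop from genes that lack one. Genes that share at least 50% of their 50-base stretches had a median of -0.48 and those that share less -0.43. The 11 tested genes with a poly(A) signal in an annotated transcript had a median of -0.20 and the 45 without one -0.47, but 5 of the 11 are H4 genes. The 48 genes on chromosome 13 and the 7 on chromosome 3 had medians of -0.46 and -0.40. For comparison, 68 other genes with a span of at most 1000 bases had a median of 0.02, with 30 below 0.

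The replicate 3 libraries were compared with the other 4 in the limma fit with group and code form. Here both classes were lower. All 56 replication-dependent genes were below 0 in replicate 3, as were 59.9% of all genes, with a median of -0.44 against -0.06 over all genes, and 29 had an adjusted p under 0.05, all lower, where 12.6% of all genes were called lower and 6.23% higher. By family 13 of 16 H2A, 6 of 16 H2B, 8 of 11 H3 and 2 of 12 H4 genes fell, and Hist1h1d, at -0.15, did not pass. Hist1h2bl fell by 0.91 and Hist1h2an by 0.78 on the log2 scale (adjusted p = 0.00154 and 0.00396, limma). The medians were -0.43 within control and -0.50 within knockdown libraries.

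Among the variants 5 of 9 fell in replicate 3. H2afz fell by 0.81 (SE 0.07; adjusted p = 0.00154), H2afv by 0.64 (adjusted p = 0.00493), H2afy by 0.49 (adjusted p = 0.0266), H2afx by 0.48 (adjusted p = 0.0392) and H1f0 by 0.37 (adjusted p = 0.0219), all by limma. H1fx was at -0.45, H3f3a at 0.04, H2afj at 0.34 and H3f3b at 0.50, and none of these 4 passed. The median over the 9 was -0.45, close to that of the replication-dependent genes, whereas in the knockdown comparison the medians were 0.07 and -0.46. Both comparisons use the same 6 libraries. Without control replicate 3 the calls were 14 of the 56 and 2 of the 9, and without knockdown replicate 3 they were 12 and 1, where 2.87% and 2.86% of all genes, in that order, were called lower. In each of these fits replicate 3 is a single library, whose spread is assumed to be that of the others.

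**Figure D5:**
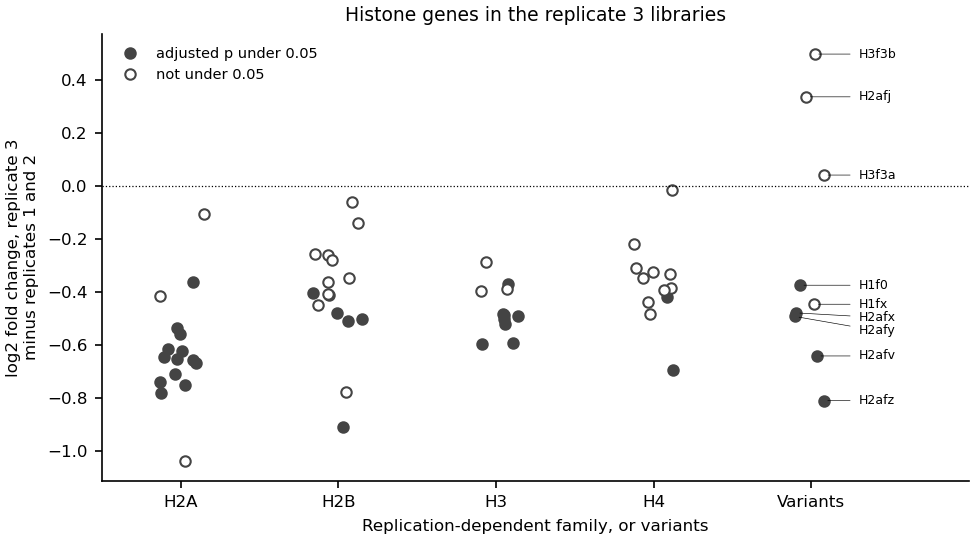
Log2 fold change of each tested gene between replicate 3 and replicates 1 and 2 (y axis, log2(FPKM + 1), group in the fit), by replication-dependent family and for the variants, with points spread sideways for legibility; filled points have a limma adjusted p under 0.05. H2A has 13 of 16 points filled and H4 has 2 of 12, and among the variants H2afj, H3f3a and H3f3b lie above 0.

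Other values moved with replicate 3. The fibroblast or mesangial marker Col3a1, a collagen gene, measured 267, 254 and 673 FPKM in control and 365, 382 and 795 FPKM in knockdown. Of 9 tested markers of that list 6 rose in replicate 3, whereas Pdgfrb fell by 0.26 on the log2 scale (adjusted p = 0.0245, limma). Pdgfra was at -0.29 and Des at 0.09 there, neither with an adjusted p under 0.05. Of 33 tested S phase genes 23 fell there, with a median of -0.68. Of all genes 6.23% rose and 12.6% fell there. Their part in the histone values was not tested, and in bulk libraries fewer dividing cells and less histone mRNA per cell cannot be told apart.

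The genes around the histones were taken from lists of histone mRNA processing factors, histone chaperones and S phase genes. None of their members passed the knockdown comparison over all genes. Of 33 listed processing factors 29 were in the table and 25 were tested, with 7 below 0, 18 above and a median of 0.03. Slbp, which encodes the stem-loop binding protein, measured 3.29, 4.32 and 2.33 FPKM in control and 3.89, 4.64 and 3.40 FPKM in knockdown. The groups overlapped, with knockdown replicates 1 and 3 below control replicate 2. Npat, whose product activates histone gene transcription, measured 6.31, 7.32 and 3.92 FPKM against 5.93, 5.24 and 4.87 FPKM, with overlapping groups and control replicate 3 lowest. Cpsf3, the gene of the nuclease that cuts histone mRNA, measured 29.6, 33.8 and 27.0 FPKM against 36.4, 39.0 and 32.2 FPKM. Ncbp1, which encodes a cap-binding subunit, was at -0.16 without overlap, and Snrpe, which encodes a core protein of small nuclear ribonucleoproteins, at 0.16 on the log2 scale. Of the 25 tested processing genes 1 was lower and 0 were higher without overlap, where 4.01% and 6.06% of all genes were.

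Of 36 chaperone genes 29 were tested, with 17 below 0 and a median of -0.02. Anp32e, whose product removes H2A.Z from chromatin, measured 14.2, 17.3 and 14.7 FPKM in control and 13.9, 12.1 and 10.0 FPKM in knockdown, without overlap, and had a log2 fold change of -0.34 (SE 0.14; adjusted p = 0.998, limma). The H2A-H2B chaperone gene Nap1l4 was at 0.12, also without overlap, Znhit1, a subunit gene of the complex that deposits H2A.Z, at 0.23, and Ipo4, an importin gene, at -0.26. Of the 29 tested chaperone genes 1 was lower and 1 higher without overlap, where 4.01% and 6.06% of all genes were.

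Of 42 S phase genes 33 were tested, and 30 of them were below 0 in knockdown with a median of -0.20, none at an unadjusted p under 0.05. With the code form in the fit 12 were, all lower, where 5.69% of all genes were lower. Mcm6, a subunit gene of the replicative helicase, measured 6.51, 5.61 and 2.45 FPKM in control and 3.82, 2.85 and 1.45 FPKM in knockdown, with control replicate 3 below knockdown replicates 1 and 2. Ccne2, which encodes cyclin E2, was at -0.47, Gins1, a helicase cofactor gene, at -0.56 and Cdk2 at -0.16 on the log2 scale. The S phase median was -0.00 without knockdown replicate 3 and -0.45 without control replicate 3. The S phase and the replication-dependent histone medians were both below 0 in the knockdown and in the replicate 3 comparison, and the part of S phase in the histone values was not tested.

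Of 15 listed RNAs that end without a poly(A) tail, the 1 in the table was Malat1, a nuclear long non-coding RNA whose end is cut by a tRNA-processing enzyme. It measured 454, 443 and 286 FPKM in control and 345, 295 and 262 FPKM in knockdown. Each knockdown library was below the control of the same number, but control replicate 3 was below knockdown replicates 1 and 2. Its log2 fold change was -0.37 (SE 0.20; adjusted p = 0.998, limma) and it fell by 0.46 in replicate 3 (adjusted p = 0.0247). Whether the capture of RNA without poly(A) tails differed between libraries was not tested. Among markers of cell types, Dach1 was at 0.46 and Magi2 at -0.16, Cd2ap at 0.09 and Kirrel at -0.06 (podocyte); Des was at 0.31, Pdgfra at -0.24, Pdgfrb at -0.11 and Col3a1 at 0.42 (fibroblast or mesangial); and Eng was at 0.24 and Ehd3 at -0.15 (endothelial) in knockdown against control, none with an adjusted p under 0.05 by limma.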

How the data were processed

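The deposited values are FPKM per gene, per the file headers, with counts and depth unknown. StringTie 1.2.2, HISAT2 2.0.4, cutadapt 1.17, FastQC 0.11.7, R 2.10.0 and build mm9 are listed in the submitters' processing notes without a role or order. However, GENCODE M21 holds 9110 of the 9120 gene identifiers, and 8377 genes had its exact span on GRCm38 (69 of the 70 histone genes), so coordinates are given as GRCm38. One emptied line of the table was not analysed here. Per the series' design text the replicates are biological.

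Genes with at least 1 FPKM in 3 or more of 6 libraries were kept, and limma 3.58.1 (R 4.3.3; trend in the variance, two-sided) was run on log2(FPKM + 1), with Benjamini-Hochberg adjustment over 8047 genes at 0.05; the scale understates changes of low genes. The fit with group alone was tested on simulated data. These had no difference between replicate 3 and the others, so recovery there does not carry over to these libraries. The fit over replicate 3 had group and code form as terms. Levels are per length, and the longest GENCODE M21 transcript is 7425 bases for Hist1h1d and 312 for Hist1h4k. The stem-loop begins at base 2526 of the Hist1h1d transcript. Levels of histone genes with models of unlike length can therefore be compared only roughly. Stem-loops, promoter motifs and shared 50-base stretches were searched with Python 3.11.15. Deviations from group means correlated at 0.231, 0.196 and 0.558 between libraries of replicate number 1, 2 and 3 across genes, all above 0.1, so a replicate block was also fitted; libraries of unlike number correlated at 0.226 (control 1, knockdown 2) and 0.257 (control 2, knockdown 1). Alternatives were other pseudocounts, filters, scalings and variance models, the code form as a term, and each library left out; fits to 5 libraries with the code form, and each library left out of the replicate 3 comparison, were added after seeing the data. Members, lists and alternatives were chosen with earlier results of these data known. All variants were named, as were the 3 most abundant replication-dependent genes per family, the 6 with the smallest p, and up to 4 genes per list with the smallest p; other genes named were chosen after their values were seen.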

Additional observations from a re-analysis of the deposited data

How the results depend on the processing

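The count of genes with an adjusted p under 0.05 between knockdown and control, 0 by the limma fit reported (366 at an unadjusted p under 0.05), was 1 with a robust variance without trend, 2 within the HG-coded libraries, and from 0 to 2 with 1 library left out, with or without the code form; none of these was a histone gene. The replicate block changed no call. For the replicate 3 comparison, leaving out 1 library gave 343 to 1204 genes called, 12 to 36 of the replication-dependent genes and 1 to 4 of the variants. With one replicate 3 library left out the other stands alone, and its spread is assumed to be that of the remaining libraries. Of 905 values followed under the alternatives, 845 kept their direction and side of the threshold, or moved by less than the spread between libraries. The class medians were among these 845 in each alternative run. The unknown depth, near-identical copies and 3 libraries per group limit every single histone gene.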

Other observations

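The low H4 values of control replicate 1 were uneven among the H4 genes. Its level over the mean of control replicates 2 and 3 was 1.03 for Hist1h4c, 0.987 for Hist1h4a and 0.939 for Hist1h4d, the 3 H4 genes whose promoter windows hold CCAAT. The 8 H4 genes without CCAAT in the window ranged from 0.269 (Hist1h4f) to 0.912 (Hist1h4h), with a median of 0.698. The 2 sets of genes did not overlap in this ratio, but against control replicate 3 alone they overlapped. There Hist1h4h was at 43.1 and 35.9 FPKM in control replicates 1 and 3, and Hist1h4a at 13.1 and 12.2 FPKM. Hist2h4, whose promoter window was not matched, had a ratio of 0.452. The split was chosen after the values were seen, rests on 1 library and was not tested. The variant H3f3b, whose window also holds CCAAT, had a ratio of 0.172.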
